A study of Mus musculus with 17 samples.

Results

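The heat shock proteins and chaperonins are the proteins that fold, refold and disaggregate other proteins. Their genes were chosen by symbol from the autosomal protein-coding genes of GENCODE M21 on mm10. A gene was taken where its symbol began with *Dnaja*, *Dnajb*, *Dnajc*, *Hspa*, *Hspb*, *Hsph* or *Cct* and went on with a number, began with *Hsp90*, or was *Tcp1*, *Hspd1*, *Hspe1*, *Hsf1* or *Hsf2*, with 1 *Hspa* gene left out. This gave 82 genes of 20807. Each was scored for an H3.3 peak within 1 kb of any of its annotated transcript starts.

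To learn where the histone variant H3.3 lies in male meiosis with and without ARID1A, a subunit of the BAF chromatin remodeler, H3.3 was mapped by CUT&RUN, which cuts chromatin with a nuclease tethered to a bound antibody and sequences the fragments set free. Pachytene spermatocytes, the cells in mid-prophase of the first meiotic division, were purified by sedimentation (Sta-Put) and cryopreserved. The H3.3 libraries numbered 2 from *Arid1a* WT and 3 from *Arid1a* cKO, and the 12 ARID1A libraries of the series were not analysed here. Males of both genotypes were adult. *Arid1a* cKO males were homozygous for the floxed allele (*Arid1a* fl/fl) and carried a *Stra8-Cre* transgene, which is expressed from the spermatogonial stage. *Arid1a* WT males carried the floxed allele on one or both chromosomes and no Cre, so all animals carried the floxed allele, on a CD1 background. Testes of several males were pooled for each purification. Cre did not act in every cell, so the *Arid1a* cKO cells include escapers that keep ARID1A. Peaks had been called in each library against an IgG library of another study, made from pachytene-enriched cells of juvenile testes. The replicates were then overlapped, which leaves 1 peak list per genotype. Library depth is not known from these lists, so the values below carry no spread between replicates, and the genotypes could not be compared by a test. H3.3 peaks alone do not show the identity of the cells, so the label could not be checked against markers.

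Hsp70 proteins bind and release exposed hydrophobic stretches in a cycle driven by ATP. J-proteins (*Dnaja*, *Dnajb* and *Dnajc*) bring clients and start the ATP hydrolysis, while Hsp110 proteins exchange the nucleotide. Hsp90 acts later on near-native clients, the chaperonins enclose a client in a chamber, and small heat shock proteins (*Hspb*) hold unfolded proteins without ATP. The heat shock factors *Hsf1* and *Hsf2* drive transcription of many of these genes through heat shock elements, which are inverted GAA units. Several members are known from the testis, above all *Hspa2*, the Hsp70 of spermatocytes, which is needed for the end of meiotic prophase.

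The sequences below are examples from genes with and without a peak. They are the stretches upstream of the RefSeq start that no annotated exon overlaps (GRCm38.p6, the build of mm10), 5′ to 3′ on the gene's strand. Capitals mark CCAAT boxes and heat shock elements of 2 units (GAANNTTC), searched on both strands. The first 3 belong to genes of the testis and do not stand for that list. On it, *Hspa4l* had a peak and no CCAAT in the 250 bases upstream, and *Dnajb7* and *Dnajc5g* had CCAAT and no peak. *Hspa2* (chr12:76404290-76404369, plus strand) and *Dnajb3* (chr1:88205783-88205998, minus strand) had an H3.3 peak at their start in *Arid1a* cKO, and *Dnajb8* (chr6:88222018-88222267, plus strand), with none of the searched letters in this stretch, had none.
Hspa2: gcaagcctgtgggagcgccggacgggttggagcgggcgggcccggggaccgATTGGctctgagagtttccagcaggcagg
Dnajb3: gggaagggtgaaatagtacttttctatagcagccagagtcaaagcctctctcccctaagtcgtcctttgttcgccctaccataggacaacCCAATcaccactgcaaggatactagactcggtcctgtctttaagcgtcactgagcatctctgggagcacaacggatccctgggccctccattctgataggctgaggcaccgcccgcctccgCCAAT
Dnajb8: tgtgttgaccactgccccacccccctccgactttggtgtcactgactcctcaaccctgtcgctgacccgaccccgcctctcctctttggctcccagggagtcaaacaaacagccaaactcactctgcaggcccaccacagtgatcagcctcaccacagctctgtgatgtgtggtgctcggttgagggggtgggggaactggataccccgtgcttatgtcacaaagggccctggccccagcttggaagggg

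The others contrast a chaperonin subunit, *Cct7* (chr6:85451284-85451504, plus strand), whose start lay in the widest region of the family, with the heat-inducible genes *Hspa1a* (chr17:34972157-34972406, minus strand), *Hspa1b* (chr17:34959239-34959488, minus strand) and *Hspb1* (chr5:135887669-135887918, plus strand), which had no peak. Of these, *Hspa1a* and *Hspa1b* differ at 3 of 250 bases, an identity of 98.8%. The heat-inducible genes printed here do not stand for that list, on which 7 of 11 members had a peak. Among members without a peak, only *Hspa1a*, *Hspa1b* and *Hspb1* had under 80% unique 50-base words within 1 kb of a start.
Cct7: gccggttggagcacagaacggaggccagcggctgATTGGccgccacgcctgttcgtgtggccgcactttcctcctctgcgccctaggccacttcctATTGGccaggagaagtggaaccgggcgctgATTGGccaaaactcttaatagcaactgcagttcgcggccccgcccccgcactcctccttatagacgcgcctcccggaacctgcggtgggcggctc
Hspa1a: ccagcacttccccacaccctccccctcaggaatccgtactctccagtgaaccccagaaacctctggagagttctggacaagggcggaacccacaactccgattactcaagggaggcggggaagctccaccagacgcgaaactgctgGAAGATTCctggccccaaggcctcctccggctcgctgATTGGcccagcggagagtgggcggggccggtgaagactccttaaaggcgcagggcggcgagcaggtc
Hspa1b: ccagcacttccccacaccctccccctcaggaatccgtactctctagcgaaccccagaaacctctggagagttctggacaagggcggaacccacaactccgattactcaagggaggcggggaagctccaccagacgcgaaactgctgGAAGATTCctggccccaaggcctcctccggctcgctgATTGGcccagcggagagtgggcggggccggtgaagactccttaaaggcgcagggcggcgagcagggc
Hspb1: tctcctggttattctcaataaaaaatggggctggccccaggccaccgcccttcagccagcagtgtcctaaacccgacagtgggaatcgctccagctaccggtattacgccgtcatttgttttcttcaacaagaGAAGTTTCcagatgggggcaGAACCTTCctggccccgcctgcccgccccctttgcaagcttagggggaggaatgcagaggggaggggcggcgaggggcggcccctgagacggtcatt

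In *Arid1a* cKO, 47 of the 82 genes had an H3.3 peak within 1 kb of a start, and 35 did not. That is 57.3% (95% Wilson interval 46.5 to 67.5%), against 29.5% (28.9 to 30.2%) of all 20807 autosomal protein-coding genes. In *Arid1a* WT, 0 of the 82 had one, against 0% of all. The Wilson interval of 0 of 82 reaches 4.47%. As the WT list held no peak at any autosomal coding gene, this count does not set the members apart. The authors also report H3.3 signal above IgG in *Arid1a* WT at starts of autosomal genes that ARID1A regulates. It appeared stronger in *Arid1a* cKO. A lack of listed peaks is therefore not a lack of H3.3. The whole WT list held 228 rows with 4 regions on autosomes, while the cKO list had 12183 rows that made up 6552 regions, 6179 of them autosomal. The lowest fold enrichment listed was 4.85 in *Arid1a* WT and 2.80 in *Arid1a* cKO. The genotypes thus differ in the number of libraries overlapped and in the weakest peak listed, and these cannot be told apart here from a difference in H3.3. The intervals cover counting error only and treat genes as independent, although neighbouring genes can share a peak.

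The 47 genes were marked by 47 distinct regions, since *Hspd1* and *Hspe1* shared one and *Hspa12a* had a region at each of 2 starts. All of these regions were made of 2 overlapping rows. Of the 5475 regions at the starts of all autosomal coding genes, 90% were made of 2 or more. The rows come from an overlap of replicates and are not independent peaks. Fold enrichment (H3.3 pileup divided by that of the background) ran from 2.91 to 7.32 with a median of 4.47 (95% interval of the median 4.14 to 4.81), and that of all 5475 regions from 2.81 to 14.9 with a median of 4.06. The median width was 539 bp (207 to 1392 bp), against 439 bp for all. Of the 47, 31 lay above the overall median of fold and 28 above that of width, and the highest fold, 7.32, was below the highest of the list, 14.9. The lowest fold, 2.91, was shared exactly by 511 autosomal regions, 2 of them at these genes, so these have no order by fold.

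**Figure D1:**
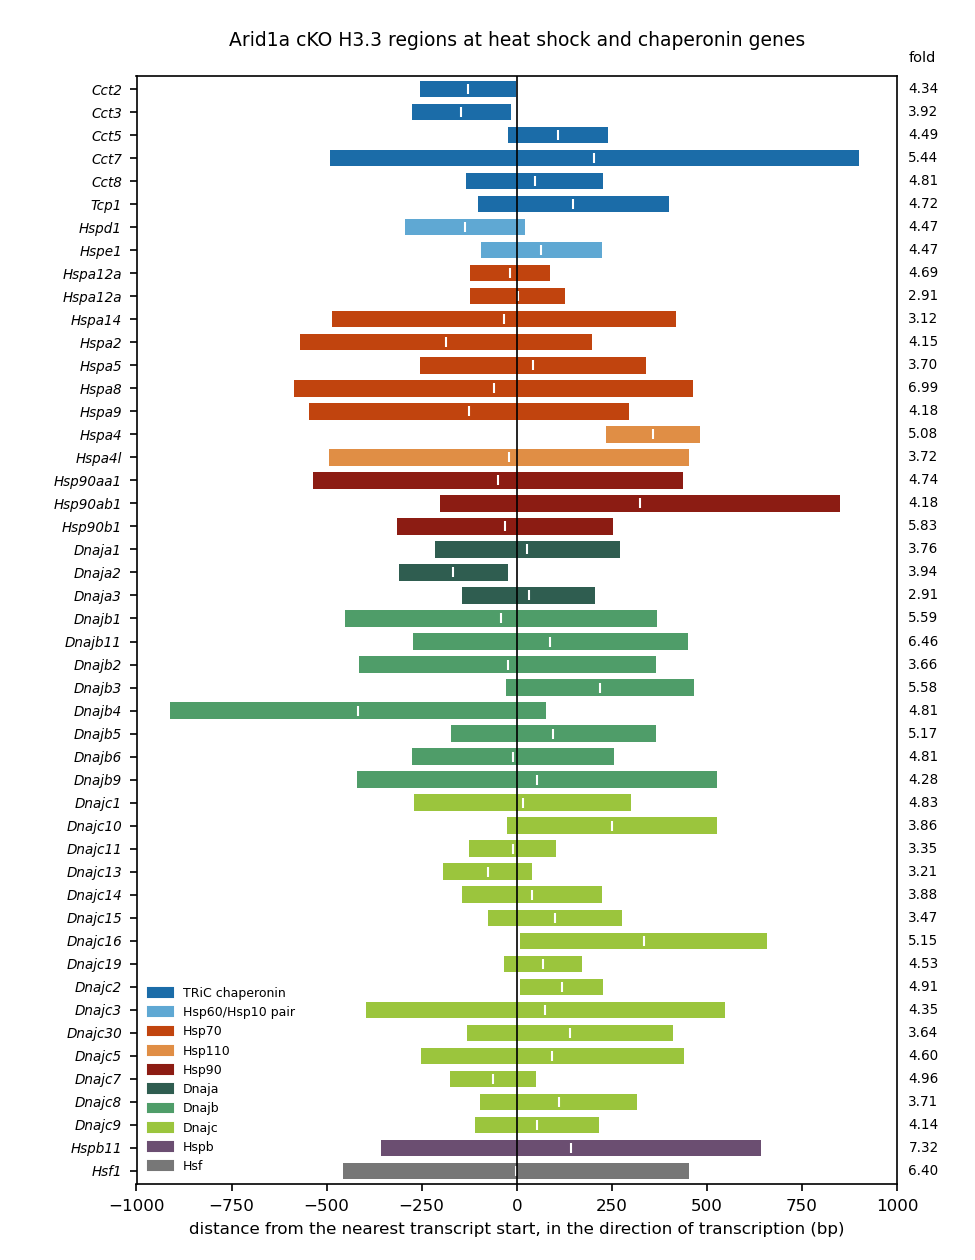
Span of each *Arid1a* cKO H3.3 region (bars, coloured by family) in bp from the nearest transcript start of the gene, with negative values upstream. White ticks mark region centres, numbers at the right give the fold, and most bars cross the start, with *Hspa4* the one that lies farthest from it, at 235 bp.

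Regions sat on the starts themselves, as the map of spans around the starts shows. Of the 47, 41 covered a start of their gene, or 87.2%, against 79.6% of all regions at coding genes. The genes whose region covered none were *Cct2* (3 bp away), *Dnajc2* and *Dnajc16* (9 bp each), *Cct3* (16 bp), *Dnaja2* (24 bp) and *Hspa4* (235 bp). Just outside the 1 kb window, *Dnajc4* had its nearest region at 1985 bp and *Dnajb14* at 2374 bp. The other genes without a peak were farther off, and the median distance over all 35 was 29490 bp. Centres lay downstream of the start in 27 regions and upstream in 20, with a median of 31 bp downstream, while those of all regions lay downstream in 67.2% with a median of 54 bp. The start was the nearest of the member's own, but for all regions the nearest of any coding gene at the region. The offsets are thus small in part by this choice and are not fully alike.

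The cytosolic chaperonin TRiC folds actin and tubulin in a double ring of 8 kinds of subunit. Its genes *Tcp1*, *Cct2*, *Cct3*, *Cct5*, *Cct7* and *Cct8* had a region in *Arid1a* cKO and *Cct4* did not. The widest of all 47 regions was at *Cct7* (chr6:85451023-85452414, 1392 bp), with a fold of 5.44 and a -log10 q of 7.10. At *Tcp1* the region (chr17:12916374-12916875, 502 bp) had a fold of 4.72 and a -log10 q of 5.35, and at *Cct8* (chr16:87495476-87495837, 362 bp) the values were 4.81 and 3.63. The remaining regions were short and lay mostly or wholly on one side of the start. At *Cct5* (chr15:31601300-31601561, 262 bp) the fold was 4.49 and the -log10 q 4.11. At *Cct2* (chr10:117063378-117063630, 253 bp) they were 4.34 and 3.10, and at *Cct3* (chr3:88296841-88297100, 260 bp) 3.92 and 4.11. The subunit gene *Cct6a* is no member, because its annotation there is a processed transcript and not protein-coding, yet its start lay in a region of the same kind (chr5:129787278-129787800, 523 bp, fold 5.17, -log10 q 5.53). By contrast *Cct6b*, the copy used in the testis, had its nearest region at 16897 bp, and the single-exon gene *Cct8l1* at 13482 bp.

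The mitochondrial chaperonin *Hspd1* (Hsp60) and its lid *Hspe1* (Hsp10) are transcribed away from each other. Both starts lay in a single region (chr1:55088220-55088537, 318 bp, fold 4.47, -log10 q 4.73). H3.3 at this pair is therefore 1 measurement for 2 genes.

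Of the Hsp70 genes, 6 of 10 had a region (60%, against 29.5% of all autosomal coding genes). *Hspa8*, the constitutive cytosolic Hsp70, had the strongest (chr9:40800690-40801740, 1051 bp), with a fold of 6.99 and the highest -log10 q of all members, 11.1. At *Hspa2*, the region (chr12:76403606-76404374, 769 bp) had a fold of 4.15 and a -log10 q of 4.23. Its fold ranked at the 52.9th percentile of all 5475 regions and its width at the 82.8th. It reached from -570 bp to 198 bp of the nearest GENCODE start. The *Hspa2* stretch printed above lies wholly inside it. That stretch is upstream of the RefSeq start but downstream of this GENCODE start (76404176). *Hspa5* (BiP, the Hsp70 of the endoplasmic reticulum) had a fold of 3.70 and a -log10 q of 2.05 (chr2:34771844-34772439, 596 bp). *Hspa14*, a ribosome-associated Hsp70, had a wide but weak region (chr2:3512395-3513301, 907 bp) with a fold of 3.12 and the lowest -log10 q, 2.02. *Hspa12a*, a distant relative, had short regions at 2 starts, with a fold of 4.69 and a -log10 q of 4.18 at one (chr19:58943567-58943777, 211 bp) and of 2.91 and 2.11 at the other (chr19:58860840-58861091, 252 bp). For *Hspa9* (mortalin, the mitochondrial Hsp70) the fold was 4.18 and the -log10 q 3.50 (chr18:34954062-34954903, 842 bp). No region lay at *Hspa1a* and *Hspa1b*, the classical heat-inducible Hsp70 genes, at *Hspa12b* or at *Hspa13*.

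Unique sequence was scarce at some of these starts. Over the 82 genes, the share of 50-base words within 1 kb of a start that occur once in the genome had a median of 98.9% in those with a region and 98.6% in those without. It was 49.95% at *Hspa1a* and at *Hspa1b*, 78.2% at *Hspb1*, 73.9% at *Hspa8* and above 80% at all others. Reads that fall in the sequence shared by *Hspa1a* and *Hspa1b* cannot be assigned to one of them, and the part of this in their lack of a peak was not tested.

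Hsp110 proteins are the nucleotide exchange factors of Hsp70. *Hspa4* had a short region inside the gene (chr11:53299928-53300176, 249 bp, fold 5.08, -log10 q 6.48). *Hspa4l*, abundant in the testis, had a wide and weak one across its start (chr3:40744887-40745835, 949 bp, fold 3.72, -log10 q 2.29). *Hsph1* had none, and its nearest region was 434484 bp away.

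All 3 Hsp90 genes had a region (interval 43.9 to 100%, against 29.5% of all autosomal coding genes), and these regions were above the overall median of width. *Hsp90aa1*, the inducible form that male meiosis needs, had a fold of 4.74 and a -log10 q of 5.81 (chr12:110695958-110696930, 973 bp). *Hsp90ab1*, the constitutive form, had 4.18 and 4.62 (chr17:45572403-45573454, 1052 bp). *Hsp90b1*, the endoplasmic reticulum form, had 5.83 and 5.20 (chr10:86705257-86705823, 567 bp). The values overlapped those of Hsp70.

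**Figure D2:**
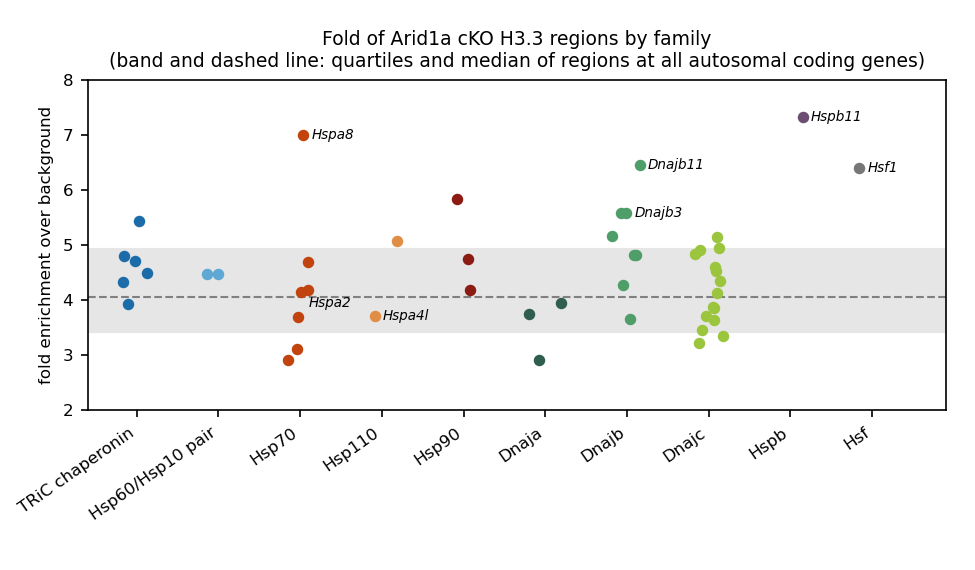
Fold enrichment of each gene's *Arid1a* cKO H3.3 region by family (points, spread sideways for visibility; *Hspd1* and *Hspe1* repeat 1 region). The grey band and dashed line are the quartiles and median of the 5475 regions at all autosomal coding genes, and the highest points are *Hspb11* at 7.32 and *Hspa8* at 6.99.

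The J-proteins are the largest group, and 26 of 45 had a region (57.8%, against 29.5% of all autosomal coding genes). Their folds ran from 2.91 to 6.46 with a median of 4.31. By class, the counts were 3 of 4 for *Dnaja*, 8 of 13 for *Dnajb* and 15 of 28 for *Dnajc*. The median fold was 3.76 for *Dnaja*, 4.99 for *Dnajb* and 4.14 for *Dnajc*, and the median width was 753 bp for *Dnajb* against 367 bp for *Dnajc*. As the plot of fold by family shows, the classes overlapped. *Dnajb11*, a BiP partner in the endoplasmic reticulum, had the highest fold of the group, 6.46, with a -log10 q of 9.81 (chr16:22857593-22858316, 724 bp). *Dnajb1*, the heat-inducible partner of cytosolic Hsp70, followed with 5.59 and 6.62 (chr8:83608101-83608921, 821 bp). *Dnajb3*, a single-exon gene of the testis, had 5.58 and 6.33 (chr1:88205317-88205811, 495 bp). *Dnajb5* had 5.17 and 5.37 (chr4:42949741-42950279, 539 bp), and *Dnajc16* had 5.15 and 6.63 (chr4:141790233-141790882, 650 bp).

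The other J-protein genes with a region served many compartments. In the cytosol and nucleus they were *Dnaja1* and *Dnaja2*, general partners of Hsp70, *Dnajb2*, *Dnajb4* and *Dnajb6*, of which *Dnajb6* prevents aggregation, *Dnajc2* of the ribosome, *Dnajc7*, *Dnajc8*, found with the spliceosome, and *Dnajc9*, a co-chaperone of histones H3 and H4. In membranes and vesicles they were *Dnajc5*, the cysteine string protein, *Dnajc13* of endosomes and *Dnajc14*. The rest, *Dnaja3*, *Dnajb9*, *Dnajc1*, *Dnajc3*, *Dnajc10*, *Dnajc11*, *Dnajc15*, *Dnajc19* and *Dnajc30*, belong to mitochondria or the endoplasmic reticulum. The J-protein genes without a region were *Dnaja4*, *Dnajb7*, *Dnajb8*, *Dnajb12*, *Dnajb13*, *Dnajb14*, *Dnajc4*, *Dnajc5b*, *Dnajc5g*, *Dnajc6* (auxilin, which uncoats clathrin vesicles), *Dnajc12*, *Dnajc17*, *Dnajc18*, *Dnajc21*, *Dnajc22*, *Dnajc24*, *Dnajc25*, *Dnajc27* and *Dnajc28*.

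The small heat shock genes stood at the other end, with 1 of 8 (12.5%, interval 2.24 to 47.1%). The exception was *Hspb11* (chr4:107253235-107254235, 1001 bp), which had the highest fold of all members, 7.32, and a -log10 q of 10.2. *Hspb11* encodes IFT25, a subunit of the intraflagellar transport complex, and it shares this region with the start of *Lrrc42* on the opposite strand. None was found at *Hspb1* (Hsp27), *Hspb2*, *Hspb3*, *Hspb6*, *Hspb7*, *Hspb8* or *Hspb9*, several of which are known from muscle and heart. The interval is wide and includes the background of 29.5%.

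The 2 heat shock factors differed. *Hsf1*, the main stress-responsive factor, had a strong region (chr15:76476977-76477887, 911 bp, fold 6.40, -log10 q 7.78) centred 3 bp from the start and shared with *Bop1* on the opposite strand. *Hsf2*, which is expressed in spermatocytes and takes part in spermatogenesis, had none, and its nearest region was 21976 bp away.

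**Figure D3:**
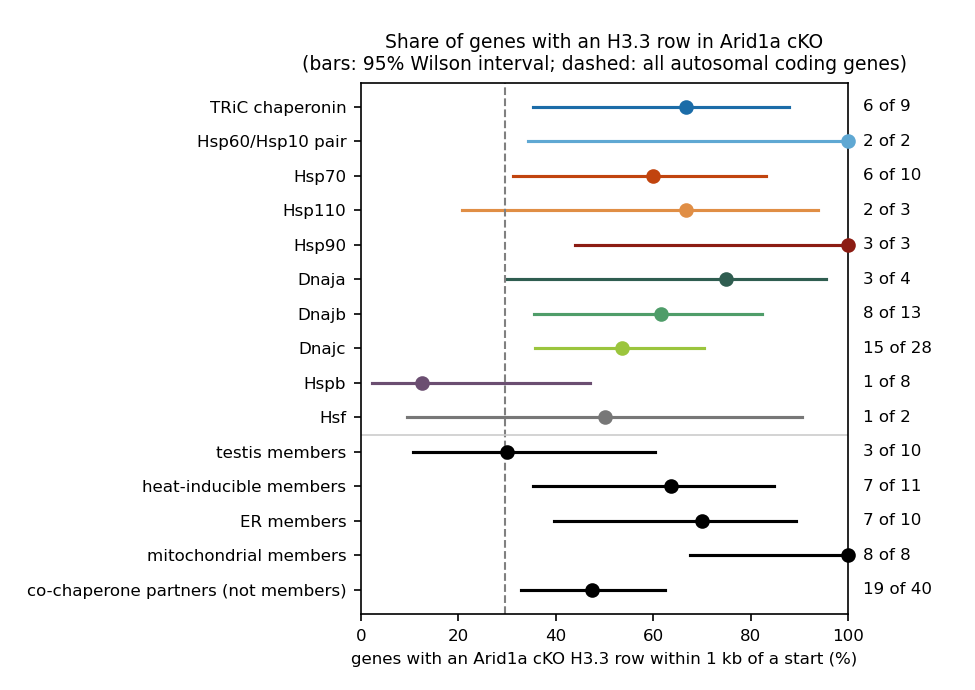
Percentage of genes with an *Arid1a* cKO H3.3 peak within 1 kb of a start, for each family and, below the grey line, for lists that cut across families; bars are 95% Wilson intervals and the dashed line is 29.5%, the share of all autosomal coding genes. The *Hspb* family (1 of 8) and the testis list (3 of 10) have the 2 lowest shares, 12.5% and 30%.

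Across families, the genes were also grouped by where or when their proteins act, in lists chosen with earlier results of these data known. All 8 genes of the mitochondrial list had a region, of which *Hspd1* and *Hspe1* shared 1. The median fold per gene, which counts this shared region for each of the pair, was 3.91. That was below the medians per region of all members (4.47) and of all regions (4.06). *Dnajc4* and *Dnajc28*, which are also catalogued as mitochondrial and are not on the list, had none, and with them the count was 8 of 10 (80%, interval 49.0 to 94.3%). Of the endoplasmic reticulum members, 7 of 10 had one (70%, interval 39.7 to 89.2%), and *Hspa13*, *Dnajb12* and *Dnajb14* did not. Of the 11 heat-inducible members, 7 had one (63.6%, interval 35.4 to 84.8%), namely *Hspa8*, *Dnajb1*, *Dnaja1*, *Hsp90aa1*, *Hsp90ab1*, *Hspd1* and *Hspe1*. *Hspa1a*, *Hspa1b*, *Hsph1* and *Hspb1* did not. The heat-inducible list holds *Hspa8* and *Hsp90ab1*, whose expression is mainly constitutive. Without them the count was 5 of 9 (55.6%, interval 26.7 to 81.1%), with *Hspd1* and *Hspe1* resting on 1 region. The interval of these 9 includes the background of 29.5%. The plot of shares by family and list sets these beside the background of 29.5%, and the share of all members was 57.3%.

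Of the 10 genes known mainly from the testis, 3 had a region in *Arid1a* cKO, *Hspa2*, *Hspa4l* and *Dnajb3*. This is 30% (10.8 to 60.3%), close to the background of 29.5%, against 44 of the 72 other members, or 61.1% (49.6 to 71.5%). The intervals overlap. Without a region were *Cct6b*, *Hspb9*, *Dnajb7*, *Dnajb8*, an anti-aggregation J-protein, *Dnajb13*, a radial spoke protein of the sperm tail, *Dnajc5b* and *Dnajc5g*, the cysteine string proteins of the testis. Levels of RNA were not measured in these files, so whether the genes were active in these cells is not shown.

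Members differed in the base composition of their promoters. RefSeq gave a window for 66 of the 82 genes and for 15700 of all. *Cct4*, *Dnajc2*, *Dnajc5*, *Dnajc5b*, *Dnajc11*, *Dnajc12*, *Dnajc18*, *Dnajc22*, *Dnajc30*, *Hsf1*, *Hsp90aa1*, *Hsp90ab1*, *Hspa8*, *Hspa9*, *Hspa13* and *Hspb2* had none. In the 250 bases upstream of the start, GC content had a median of 63.0% in the genes with a region and 60.0% in those without. The ratio of observed to expected CpG had a median of 0.875 and 0.606. A window was called CpG-rich where this ratio was at least 0.6 and GC at least 55%, which held for 40 of 66 members (60.6%) and 38.7% of all genes. Among CpG-rich members 29 of 40 had an H3.3 region (72.5%), against 56% of all CpG-rich genes. Among the others 9 of 26 had one (34.6%), against 15.7%. Within either class the members' share was thus above that of all genes, and the composition of the promoter moved with the presence of a region in both.

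**Figure D4:**
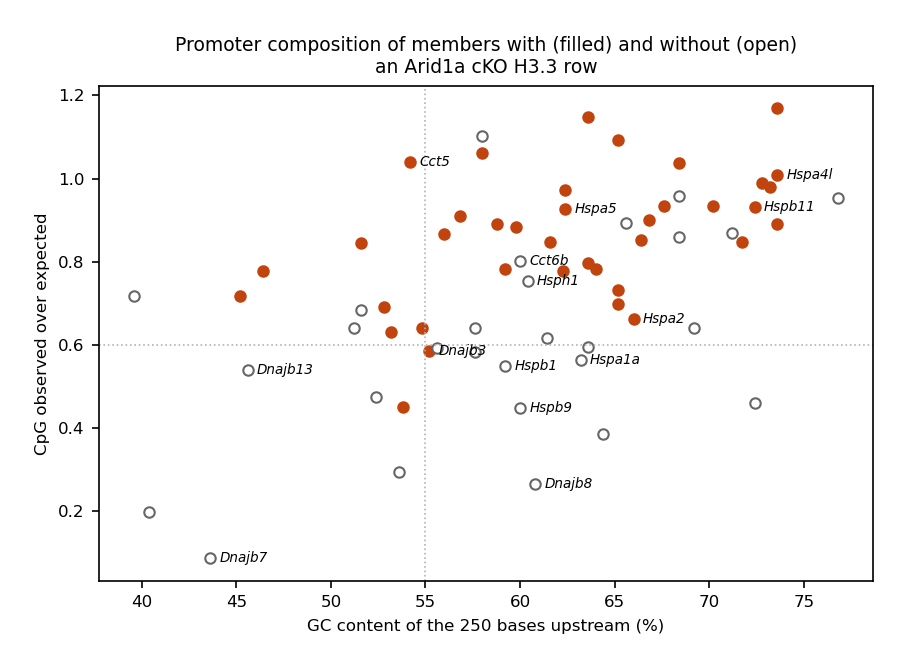
GC content (%) and ratio of observed to expected CpG in the 250 bases upstream of the start for the 66 members with a RefSeq window, filled where an *Arid1a* cKO H3.3 region lay within 1 kb and open where none did; dotted lines mark 55% and 0.6. Of the 40 genes in the upper right, 29 are filled, and of the 26 others 9 are.

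The exceptions ran both ways, as the plot of promoter composition shows. CpG-rich members without a region were *Cct6b*, *Dnaja4*, *Dnajb12*, *Dnajb14*, *Dnajc4*, *Dnajc17*, *Dnajc21*, *Dnajc25*, *Dnajc27*, *Hsf2* and *Hsph1*. Members with a region and a window that was not CpG-rich were *Cct5*, *Dnaja3*, *Dnajb3*, *Dnajc1*, *Dnajc7*, *Dnajc8*, *Dnajc10*, *Dnajc15* and *Dnajc19*. Among the testis genes, *Hspa2* had a ratio of 0.661 and *Hspa4l* of 1.01, while *Dnajb8* had 0.265 and *Dnajb7* 0.0858.

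Many members share a promoter with a neighbour. A coding start on the opposite strand lay within 1 kb of 27 of the 82, and 19 of these had a region (70.4%), against 60.5% of all such genes. Of the 55 without such a neighbour, 28 had one (50.9%), against 25% of all. Counted per gene, 19 of the 47 members with a region had such a neighbour (40.4%), against 26% of all genes with a region. A peak between such starts cannot be assigned to one gene of the pair. *Tcp1* with *Mrpl18*, *Cct7* with *Pradc1*, *Hsp90b1* with *Ttc41* and *Dnajb1* with *Tecr* are such pairs. No such neighbour lay at *Hspa2*, *Hspa4l*, *Dnajb3*, *Hspa8*, *Hsp90aa1* or *Hsp90ab1*.

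Heat shock elements occurred at genes with and without an H3.3 region. A heat shock element of 2 units (GAANNTTC, either strand) lay in the 250 bases upstream of 13 of 66 members (19.7%), against 7.30% of all genes. It was found at *Cct2*, *Dnaja1*, *Dnajb6*, *Hspd1* and *Hspe1*, which had a region, and at *Cct8l1*, *Dnaja4*, *Dnajc27*, *Hspa1a*, *Hspa1b*, *Hspb1*, *Hspb3* and *Hspb6*, which did not. Of all genes with this element, 26.1% had a region. The heat-inducible members without a window, *Hspa8*, *Hsp90aa1* and *Hsp90ab1*, were not searched, and each had a region. The element printed in capitals for *Hspa1a* and *Hspa1b* is the same in both. An element of 3 units, which contains one of 2 units, was found at *Dnajb6*, *Hspd1* and *Hspe1* (4.55%, against 0.465% of all), all with a region, against 35.6% of all genes with this element. As *Hspd1* and *Hspe1* share their promoter and region, these are 2 regions.

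Other promoter letters were searched on both strands of the same windows. CCAAT lay in 26 of 66 members (39.4%, against 38.9% of all), 17 with a region and 9 without, and 33.2% of all genes with CCAAT had one. TATAAA lay in 4 (6.06%, against 13.3%), *Dnajc19* with a region and *Dnajc24*, *Hspb3* and *Hspb6* without, and 14.2% of all genes with TATAAA had one. The cAMP response element TGACGTCA lay in *Dnajc27* alone (1.52%, against 2.32%), and the NRF-1 core GCATGCGC in 0 members (against 3.49%). Such matches describe the letters and not the binding of a factor.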

How the data were processed

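H3.3 CUT&RUN of pachytene spermatocytes comprised 2 *Arid1a* WT and 3 *Arid1a* cKO libraries, grouped by sample title. Per the labels, the authors used Trim Galore, Bowtie2, SAMtools, Picard, deepTools and MACS2 with mm10. By their methods, broad peaks were called in each library against IgG and the replicates were overlapped with bedtools. No filter on mapping quality was described. Each row of the deposited lists carries a score, a fold (a ratio of pileups, H3.3 over background) and a −log10 p (not used here) and −log10 q. Replicates are combined and depth is not given, so no SD, test or genotype p-value could be had. Per-sample columns that matched no sample numbered 0.

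Overlapping rows (1 bp or more) were joined into regions, which took the fold and −log10 q of the row with the highest fold. A gene was scored where a region lay within 1 kb of the start of any GENCODE M21 transcript. Coordinates are 1-based on mm10. Shares have 95% Wilson intervals and medians have order-statistic intervals. Promoter windows and their sequences came from RefSeq (GRCm38.p6), and 50-base words were sought on either strand of all 21 chromosomes.

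The genes, families and lists were chosen with earlier results of these data known. Every member was named. Full values were given for chaperonins, Hsp70, Hsp110, Hsp90, heat shock factors, the 5 J-protein regions of highest fold and testis members with a region, and *Hspb11*, *Cct6a* and neighbours were named after their values were seen. Of the partner genes, 1 is not reported here. Alternatives covered the window, the −log10 q, the transcripts, the support by rows and the unit. Functions were tested on simulated data. The tools were numpy 2.4.6, numba 0.67.0, scipy 1.17.1 and matplotlib 3.10.9 under Python 3.11.15.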

Additional observations from a re-analysis of the deposited data

How the results depend on the processing

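In all, 60 alternatives were run over 10 results, of which 2, the changed heat-inducible and mitochondrial lists, were chosen after seeing the data. Of the 60, 50 moved the value by less than its error or by less than 1.5 times for a count. The number of members with an *Arid1a* cKO region was 46 (56.1%) with a window of 100 bp, 48 (58.5%) with 2 kb and 39 (47.6%) with a -log10 q of at least 3. The backgrounds were 26.1%, 30.1% and 20.8% of all genes. The number of members was 47 (57.3%) with region centres, protein-coding transcripts or regions of at least 2 rows, against 29.3%, 29.1% and 27.1% of all genes. With a -log10 q of at least 5, it fell to 15 (18.3% of members, against 9.56% of all genes), the median fold rose to 5.44 and the median width to 724 bp, as weak regions were left out. Chaperonin genes then numbered 2, J-protein genes 7 and testis genes 1, *Dnajb3*. Members with an *Arid1a* WT region numbered 0 under each alternative run. As the main count was 0, only the window of 2 kb could have raised it, and the other settings can only remove regions.

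No paired analysis was possible because the replicates of a genotype are combined into 1 list, and leaving out a replicate was not possible either. A gene without a peak has no measured level of H3.3 in these lists, so a weak peak below the caller's threshold cannot be told apart from none.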

Other observations

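Genes whose proteins work with these chaperones, but are not named after them, were read in the same way. Of 40 autosomal partner genes, 19 had an *Arid1a* cKO region within 1 kb of a start (47.5%, 95% Wilson interval 32.9 to 62.5%), against 29.5% of all autosomal coding genes, and 0 had an *Arid1a* WT region. *Stip1*, the adaptor (HOP) that passes clients from Hsp70 to Hsp90, had the highest fold of the members and partners together, 8.22, with a -log10 q of 13.7 (chr19:7039487-7040090, 604 bp). The other Hsp90 partners with a region were *Cdc37*, which loads kinases (fold 3.95), *Ptges3* (p23, fold 4.24), *Ahsa1*, which speeds the ATPase (fold 2.91), and the immunophilins *Fkbp4* (fold 4.37) and *Fkbp5* (fold 2.91). *Chordc1* and *Unc45a* had none.

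Hsp70 exchange factors of the BAG family split. *Bag2*, *Bag4*, *Bag5* and *Bag6* had a region, with folds of 2.91, 6.77, 4.41 and 5.53, and *Bag1* and *Bag3* had none. The ubiquitin ligase *Stub1* (CHIP, fold 5.00) and *St13* (fold 4.87) had one. Of the prefoldin genes, which hand actin and tubulin to TRiC, *Pfdn4* (fold 5.14) and *Pfdn6* (fold 4.23) had one and *Pfdn1*, *Pfdn2* and *Pfdn5* had none, while the TRiC cofactors *Pdcl3* (fold 3.77) and *Txndc9* (fold 4.99) had one. The mitochondrial exchange factor *Grpel2* had a fold of 6.56 and *Grpel1* had no region, nor had *Hscb*, *Dnlz* and *Clpb*, whose proteins also work in mitochondria. The other heat shock factor genes read, *Hsf4* and *Hsf5*, the latter a gene of spermatocytes, had none. Of the remaining partners, *Sec63* (fold 3.18) and *Gak* (fold 3.44) had a region and *Pdrg1*, *Hspbp1*, *Hspbap1*, *Sil1*, *Hyou1*, *Serpinh1*, *Cryab* and *Hsbp1* had none.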
